A study of Mus musculus with 8 samples.

Results

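IGHV1-81 is a variable segment of the mouse immunoglobulin heavy-chain locus, in the large IGHV1 family. The receptors described here were chosen by their heavy-chain contig: every cell barcode with exactly 1 heavy and 1 light contig, termed a paired cell, whose heavy V gene was listed as IGHV1-81. There were 2641 such cells of 40603 paired cells in all. The study set Dtx1-/- (KO) mice, which lack Deltex-1, a ubiquitin ligase tied to Notch signalling, against Dtx1+/+ (WT) mice. Germinal-centre B cells were taken from the spleen 10 days after immunization, enriched on beads with peanut agglutinin, sorted, and made into 4 KO and 4 WT libraries of single-cell receptor sequences. The sources used here do not state the immunogen, the strain, sex, age or number of the mice, the sort gates or the cells in which Dtx1 was deleted, and receptor contigs hold no Dtx1 transcript, so the deletion was not checked.

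A B-cell receptor is built by joining V, D and J segments, and the joint forms the third complementarity-determining region (CDR3) of the heavy chain, the most variable part of the antigen-binding site. In the germinal centre the enzyme AID then mutates the V region and can exchange the IgM constant gene for that of another class, and cells whose receptors bind antigen better are kept. Cells that descend from 1 rearrangement form a clone, share their CDR3 and differ by mutations. A V gene that recurs with 1 light-chain partner and 1 CDR3 form across clones is the usual sign of a shared receptor type.

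The segment lies on chromosome 12 at bases 115920279 to 115920572 of mouse build GRCm38.p6 (RefSeq gene 668591, a V segment with no further exon annotation in the table used). Its germline from framework 1 to framework 3 was read from the contigs themselves: 1 sequence of 285 bases was held without change by 1772 of the 2641 cells and by cells of 721 of 1184 clones, and the next most common form by 13 cells. It is shown because positions of mutation are counted along it, from 1 at the first base of framework 1, and codons likewise. Capitals mark the 10 bases that were changed in the most clones of both genotypes together, to which WT gave more changed clones.
IGHV1-81 germline: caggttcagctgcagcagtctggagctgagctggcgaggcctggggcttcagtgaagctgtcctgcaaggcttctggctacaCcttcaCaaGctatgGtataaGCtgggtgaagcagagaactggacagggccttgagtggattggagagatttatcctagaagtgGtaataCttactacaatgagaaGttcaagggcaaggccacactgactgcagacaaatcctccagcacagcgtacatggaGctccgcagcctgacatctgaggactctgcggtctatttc
The nearest germline among 59 others of the same kind was that of IGHV1-85, at 92.6% identity with 21 base differences, while the most mutated IGHV1-81 cell had 16. None of 2638 cells was nearer to another germline than to this one. Each germline was read from contigs already labelled with its gene, so this is no independent check of the label. Another 3 cells, of another length, were left out of mutation measures.

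The most used light-chain partner was IGKV1-135, a kappa V segment on chromosome 6 (67609745 to 67610508, GRCm38.p6). Its CDR3 in IGHV1-81 cells came in a few forms that differ mainly in the ninth codon, at the joint of V and J, written in capitals. The 5 most common forms are shown because their cell counts differed between KO and WT, which was not tested.
Arginine form: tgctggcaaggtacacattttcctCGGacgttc
Histidine form: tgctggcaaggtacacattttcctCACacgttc
Glutamine form: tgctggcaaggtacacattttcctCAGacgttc
Tryptophan form: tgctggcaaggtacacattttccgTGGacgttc
Tyrosine form: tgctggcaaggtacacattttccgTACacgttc

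IGHV1-81 cells made up 5.49, 5.93, 5.49 and 5.01% of paired cells in the KO libraries, against 7.87, 7.86, 7.85 and 7.15% in the WT libraries. The groups did not overlap. The means were 5.48 ± 0.376% in KO and 7.68 ± 0.353% in WT (SD, n = 4 libraries each). The gene was picked with this difference known, so it is a description and was not tested. It ranked 2 of 97 IGHV genes in each genotype, after IGHV8-8 (6.57%) in KO and after IGHV1-9 (7.70%) in WT, and the genes next below it were IGHV1-9 (4.76%) in KO and IGHV1-55 (6.44%) in WT. With each clone counted once, the shares were 6.16 ± 0.505% in KO and 6.91 ± 0.325% in WT libraries. The KO libraries held 304, 339, 307 and 253 IGHV1-81 cells, 1203 in all, and the WT libraries 381, 366, 363 and 328, 1438 in all. In addition, 187 contigs of the gene lay in barcodes with more than 1 heavy chain, 108 in barcodes with no light chain and 184 in barcodes with more than 1 light chain, and these were not used.

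Libraries held 11666 to 14732 contigs and 754954 to 1155339 unique molecular identifiers (UMIs). The median heavy-chain UMI count of IGHV1-81 cells was 57.5, 58, 59 and 62 in KO libraries, against 35, 37, 38 and 43 in WT libraries. In a library, 3 cells amount to 0.787 to 1.19% of its IGHV1-81 cells, a floor that covers counting error only. Pairs of libraries of 1 genotype shared 47 to 72 IGHV1-81 clones, against 9 to 17 for pairs of different genotype. The libraries of a genotype thus shared clones as portions of 1 pool would, so each test over libraries compares 2 pools of cells and does not hold the spread between mice. Paired libraries of 1 genotype also had 28 to 54 cell barcodes in common and those of different genotype 29 to 46. Of these, 4 barcodes carried IGHV1-81 in both libraries, and none had the same CDR3 in both.

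Receptor contigs allow only a limited check of the labelled cell type. Mutated receptors, the mark of a germinal-centre history, were carried by 246 of the 1203 KO and 620 of the 1438 WT cells. IgD, a class of resting B cells, was listed in 2 KO and 4 WT cells, and heavy-chain UMIs above 10 times the library median, as plasma cells would have, in 3 KO and 12 WT cells. No contig of a T-cell receptor chain was present in the libraries. A cell that is unmutated, IgM and alone in its clone has the receptor of a naive B cell. Such cells made up 37.5, 31.9, 28.7 and 28.5% of IGHV1-81 cells in KO libraries, against 8.92, 7.10, 5.23 and 7.62% in WT libraries. Among cells with other IGHV genes they averaged 21.9 ± 0.616% in KO and 15.8 ± 0.933% in WT (SD, n = 4 each). Their share moves with genotype, and they are part of each measure below that counts all IGHV1-81 cells. Measures of switched cells or of mutated cells alone do not hold them. Values without the unmutated IgM cells of 1-cell clones are given where a call ends or a difference moves by over 1.5 times. Exceptions are clone measures and the shares of clones or cells changed at a position. Those, and values with each clone counted once, hold these cells throughout. The unmutated share and the IGHJ1 share kept their calls without them. The IGHG1 share of switched cells holds no such cell, so leaving them out cannot change it.

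V-region mutation differed between the genotypes. The mutation frequency, the percent of the 285 bases changed, was 0.246, 0.279, 0.246 and 0.191% in KO libraries, against 0.572, 0.677, 0.622 and 0.555% in WT libraries. The highest KO library lay below the lowest WT library. Means were 0.241 ± 0.0364% in KO and 0.606 ± 0.0549% in WT (SD, n = 4 each; exact permutation test, two-sided, p = 0.0286, the smallest that 70 assignments of 8 libraries allow; adjusted p = 0.0286). Cells with no changed base made up 80.3, 76.4, 81.1 and 81.03% in KO, against 57.1, 53.7, 57.7 and 58.8% in WT libraries, again with no overlap (exact permutation p = 0.0286). Cells that had mutated at all carried 3.38 ± 0.361 changes in KO and 4.00 ± 0.209 in WT (n = 4, exact permutation p = 0.0286). At least 5 changes were found in 63 KO cells (5.24%) and 215 WT cells (15.0%). Without the unmutated IgM cells of 1-cell clones, the frequency was 0.354 ± 0.0639% in KO and 0.654 ± 0.0550% in WT. The differences were larger when each clone was counted once, at -0.572 points for the frequency and 35.3 points for the unmutated share (exact permutation p = 0.0286 for each). Counting by clone gives the unmutated IgM cells of 1-cell clones more weight. Over pooled libraries they made up 382 of 685 clones in KO and 104 of 499 in WT.

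**Figure D1:**
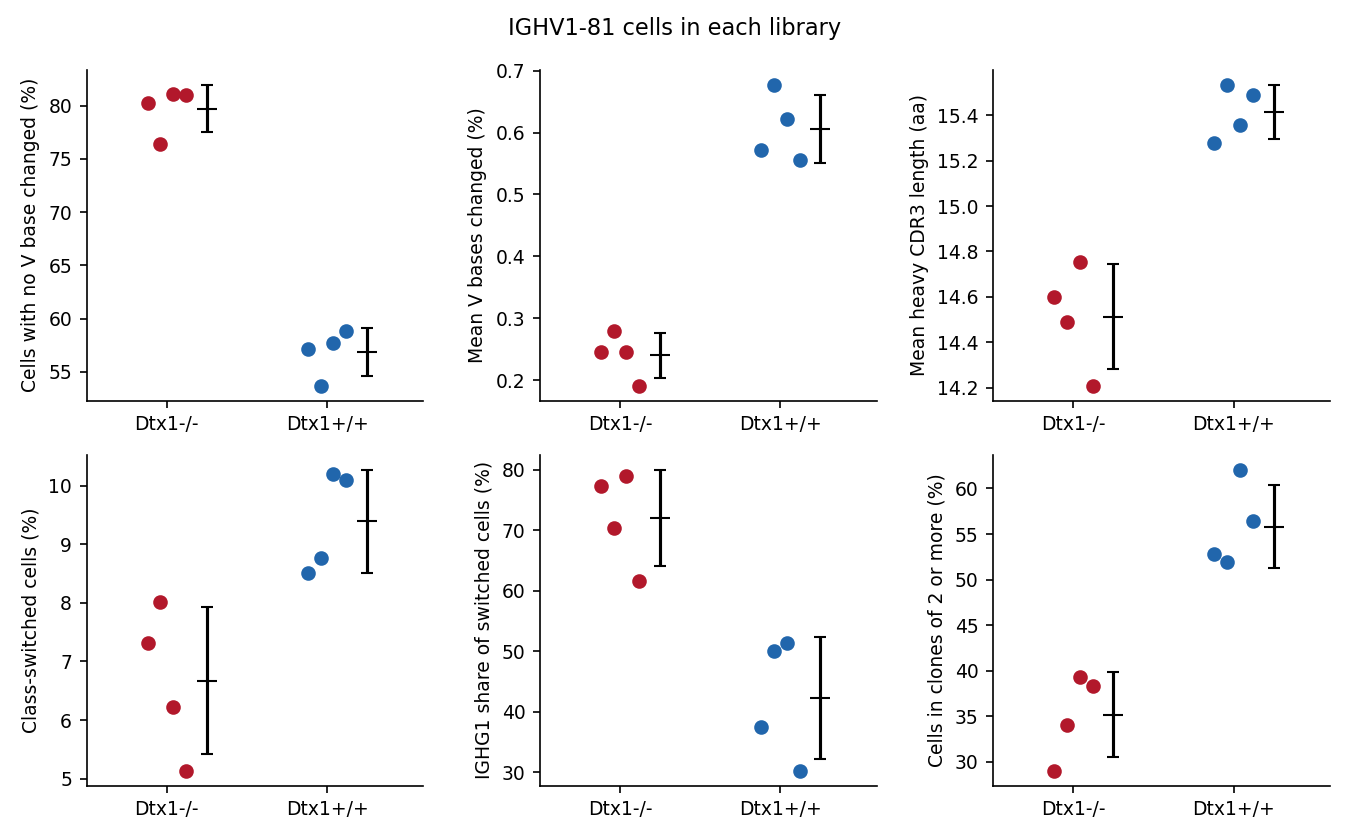
Each panel plots one measure of IGHV1-81 cells, with a point per library (Dtx1-/- red, Dtx1+/+ blue) and the mean with its SD as a bar beside the points (n = 4 each). Panels give the percent of cells with no V base changed, the mean percent of V bases changed, the mean heavy CDR3 length in amino acids, the class-switched percent, the IGHG1 percent of switched cells and the percent of cells in clones of 2 or more at 253 cells per library, and in no panel do the genotypes overlap.

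The mutation gap was set against that of cells with other IGHV genes in the same libraries. Those cells averaged 0.222 ± 0.0157% in KO and 0.417 ± 0.0132% in WT libraries. The KO minus WT difference was -0.366 percentage points for IGHV1-81 and -0.196 for the other cells. These differences themselves differed by -0.170 points (exact permutation p = 0.0286 over 8 libraries), which did not hold after adjustment over 4 such measures (adjusted p = 0.0571). As ratios, KO over WT was 0.397 for IGHV1-81 and 0.531 for other cells. For the unmutated share the differences were 22.9 and 11.9 points, 10.99 apart (exact permutation p = 0.0286, adjusted p = 0.0571). The gaps between the contrasts were -0.309 and 19.3 points when each clone was counted once.

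IgM was the class of nearly all IGHV1-81 cells. Its share was 93.2 ± 1.29% in KO and 90.3 ± 0.761% in WT libraries (n = 4, exact permutation p = 0.0286, adjusted p = 0.0457). Switched cells, those with an IGHG constant gene, made up 7.31, 8.01, 6.23 and 5.14% in KO, against 8.51, 8.77, 10.2 and 10.1% in WT libraries. The groups did not overlap, and the means of 6.67 ± 1.26% in KO and 9.39 ± 0.875% in WT differed (exact permutation p = 0.0286, adjusted p = 0.0457). This difference depended on which cells were counted. With each clone counted once it was -5.98 points (7.64 ± 1.38% in KO and 13.6 ± 1.61% in WT, exact permutation p = 0.0286). It was -2.27 points with at least 5 heavy-chain UMIs and -2.39 with all cells of 1 heavy contig, and neither passed (exact permutation p = 0.143 and 0.0857). Without unmutated IgM cells of 1-cell clones it was -0.247 points (9.87 ± 2.29% in KO and 10.1 ± 0.837% in WT, exact permutation p = 0.943). Among cells with 20 to 40 heavy-chain UMIs it was 5.15 points in the other direction (14.4 ± 4.42% in KO and 9.24 ± 1.01% in WT, exact permutation p = 0.0571), from 28 of 192 KO and 36 of 394 WT cells. Leaving out any 1 WT library also ended the call (exact permutation p = 0.0571, n = 3 and 4 libraries).

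The subclass of the switched cells differed between genotypes. IGHG1, the IgG1 constant gene, was listed in 17, 19, 15 and 8 cells of the KO libraries and in 12, 16, 19 and 10 of the WT libraries. That was 77.3, 70.4, 78.9 and 61.5% of switched cells in KO, against 37.5, 50, 51.4 and 30.3% in WT. Every KO library lay above every WT library, with means of 72.0 ± 7.92% in KO and 42.3 ± 10.1% in WT (n = 4, exact permutation p = 0.0286, adjusted p = 0.0457). The cells with other IGHV genes showed a KO minus WT difference of 33.7 points against 29.7 for IGHV1-81, and these were not distinguished by the test (difference -4.01, exact permutation p = 0.571). As a share of all IGHV1-81 cells, IGHG1 averaged 4.84 ± 1.17% in KO and 3.97 ± 1.03% in WT, with overlap between libraries (exact permutation p = 0.286 with n = 4). IGHG2B fell to 1.24 ± 0.705% in KO, against 3.33 ± 1.31% in WT, and IGHG3 to 0.248 ± 0.318% in KO, against 1.68 ± 0.580% in WT (exact permutation p = 0.0286 and adjusted p = 0.0457 for each). IGHG3 rested on 2, 0, 1 and 0 cells in KO and 6, 4, 9 and 5 in WT libraries. IGHG2C was listed in 4 KO and 6 WT cells and IGHD in 2 and 4, and neither passed the test (exact permutation p = 0.4 and 0.657 with n = 4). No IGHV1-81 cell was IgA, of 1 KO and 9 WT IgA cells in all.

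Read the other way, IGHV1-81 took 5.47% of KO IgM cells (1113 of 20342, Wilson 95% interval 5.17 to 5.79) and 7.54% of WT IgM cells (1293 of 17147). Of IGHG1 cells it took 5.13% in KO (59 of 1151) and 9.09% in WT (57 of 627). Of IGHG2B cells the shares were 8.20% in KO (15 of 183) and 11.03% in WT (47 of 426), and of IGHG3 cells 2.91% in KO (3 of 103) and 8.82% in WT (24 of 272). Because the rule rests on the level of the gene, these are values with no test. Switched IGHV1-81 cells carried more mutations than IgM cells in 8 of 8 libraries and had a longer heavy CDR3 in 7 of 8. Switched KO cells averaged 0.980 ± 0.121% of bases changed and switched WT cells 1.57 ± 0.136%, and among IgM cells the values were 0.183 ± 0.0246% in KO and 0.505 ± 0.0550% in WT (n = 4, exact permutation p = 0.0286 for each). Switched cells had fewer heavy-chain UMIs than IgM cells in 8 of 8 libraries.

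The light chain differed as well. IGKV1-135 was the partner of 11.8, 12.1, 12.7 and 11.1% of IGHV1-81 cells in KO libraries, against 28.6, 29.0, 33.9 and 33.2% in WT libraries. The counts behind these are 144 KO and 447 WT cells. In edgeR's quasi-likelihood test the log2 fold change was -1.37 ± 0.110 (SE, adjusted p = 1.6e-10). Among cells with other IGHV genes, IGKV1-135 was used by 1.98% in KO and 1.64% in WT. Shares of clones lay nearer each other. The KO cells fell into 103 clones (15.0% of KO clones), 85 of them of 1 cell. The WT cells fell into 63 clones (12.6% of WT clones), 30 of them of 1 cell. With each clone counted once, the log2 fold change was -0.26 and did not pass edgeR's test (adjusted p = 0.304), so the call depends on counting cells. A WT group of 102 cells, counted as 1 clone, held 36 heavy and 11 light CDR3 sequences, so the WT clone number depends on how clones are drawn.

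Of the 31 light V genes with enough cells to test, 13 differed between genotypes in edgeR's test (41.9% of those tested), 9 higher in KO and 4 lower. Shares within a library add up to a fixed whole: the median log2 fold change over the 31 genes was 0.73, and with DESeq2's size factors it was 0.19. IGKV2-137 fell to 1.94 ± 0.449% in KO, against 8.74 ± 0.870% in WT (log2 -2.17 ± 0.245, edgeR adjusted p = 7.26e-08). Its shares of clones were nearer, at 2.19% in KO (15 clones) and 3.61% in WT (18 clones, the largest of 30 cells). IGKV1-110 fell to 6.83 ± 0.469% in KO, against 11.1 ± 2.55% in WT (log2 -0.70 ± 0.185, edgeR adjusted p = 0.00263). IGKV13-84 was carried by 4 KO and 54 WT cells (log2 -3.36 ± 0.487, edgeR adjusted p = 3.03e-06), of which 53 WT cells belonged to 1 clone. IGKV1-117, the second partner by use, was used by 12.1 ± 2.02% in KO and 13.7 ± 2.65% in WT and did not pass (log2 -0.18 ± 0.156, edgeR adjusted p = 0.324).

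The partners that were higher in KO were each used by few cells. IGKV8-28 was carried by 54 KO cells in 49 clones and by 8 WT cells (log2 2.93 ± 0.531, edgeR adjusted p = 5.74e-05), and 94.4% of the KO cells were unmutated. IGKV4-70 was carried by 41 KO cells in 21 clones and by 2 WT cells (log2 4.28 ± 0.589, edgeR adjusted p = 1.64e-06). IGKV3-12 was carried by 31 KO and 2 WT cells (log2 3.89 ± 0.629, edgeR adjusted p = 1.34e-05), of which 30 KO cells were 1 clone. IGKV8-19, IGKV15-103, IGKV9-124, IGKV6-17, IGKV4-57 and IGKV8-24 were also higher, with log2 fold changes of 1.43 to 3.33 (edgeR adjusted p of 0.000994 to 0.0193). Of these 6 genes, IGKV8-19 alone was also called by DESeq2. IGKV8-30, IGKV10-96 and IGKV14-111, which complete the 10 most used partners, had log2 fold changes of 0.39, 0.45 and 0.08 and did not pass.

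**Figure D2:**
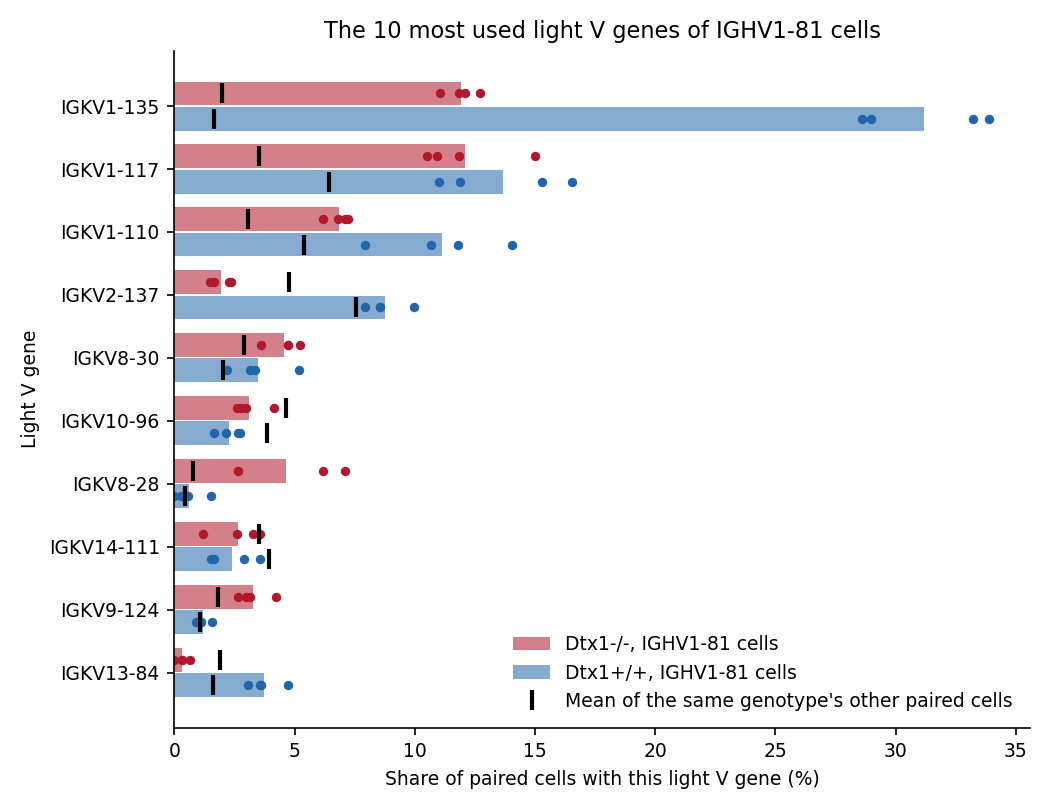
Bars give the mean percent of IGHV1-81 cells that used each of the 10 most used light V genes in Dtx1-/- (red, upper bar) and Dtx1+/+ libraries (blue, lower bar), points give the 4 libraries of each, and the black line gives the mean in that genotype's paired cells with other IGHV genes. IGKV1-135 stands at 11.9% in Dtx1-/- and 31.2% in Dtx1+/+, against 1.98 and 1.64% in the other cells.

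**Figure D3:**
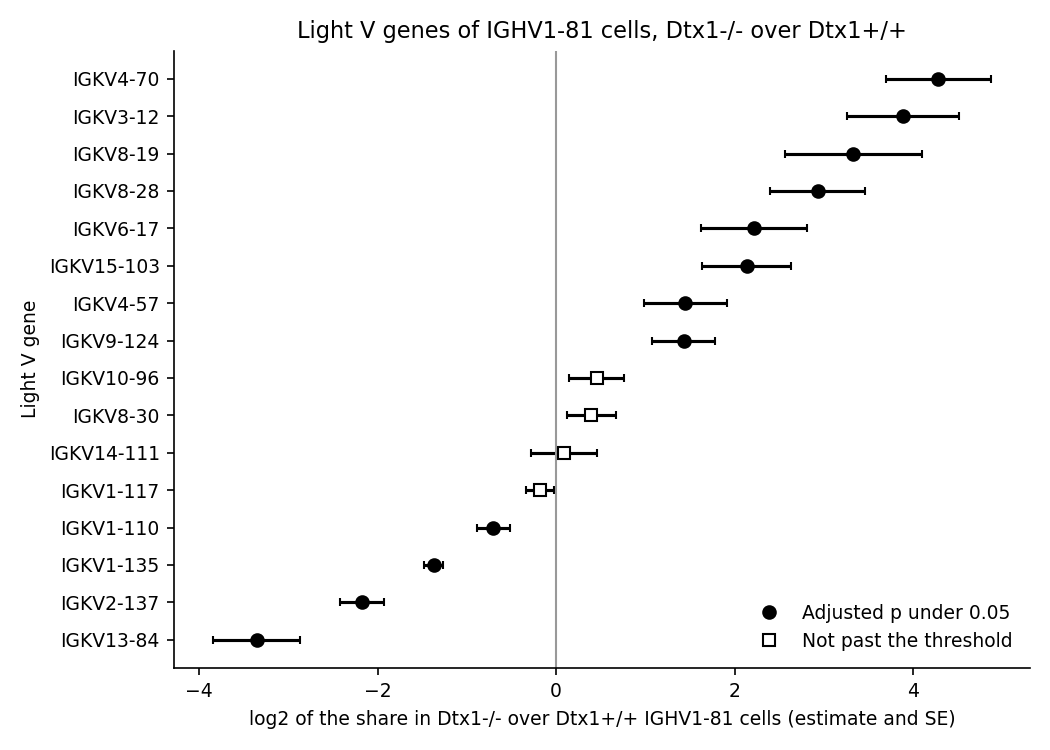
Each point is the log2 of the share of a light V gene in Dtx1-/- over Dtx1+/+ IGHV1-81 cells by edgeR, with its SE as a bar, for the light V genes that the text names by rule. Filled points passed an adjusted p of 0.05, with IGKV13-84, IGKV2-137, IGKV1-135 and IGKV1-110 below 0.

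Set against the other paired cells of the same libraries, IGHV1-81 cells used light V genes in other proportions, and were seen with 81 of 97. Of 59 light V genes tested, 44 differed (74.6%, edgeR with library as a block), 8 higher and 36 lower with IGHV1-81, and the median log2 ratio over the 59 genes was -1.21. IGKV1-135 took 22.4% of IGHV1-81 cells and 1.83% of other cells (log2 3.45 ± 0.270, edgeR adjusted p = 1.26e-08, higher in 8 of 8 libraries). The log2 ratio was 2.58 within KO and 4.24 within WT. IGKV1-117 took 12.9% of IGHV1-81 cells and 4.86% of others (log2 1.41 ± 0.177), IGKV1-110 9.16 and 4.13% (log2 1.08 ± 0.160) and IGKV2-112 1.48 and 0.179% (log2 2.91 ± 0.379), each with an edgeR adjusted p of at most 2.97e-05. IGKV8-30 and IGKV8-28 were also higher, by 0.70 and 1.65 on the log2 scale (edgeR adjusted p = 0.0031 and 0.0081). IGKV3-4 was nearly absent, at 0.0379% of IGHV1-81 cells and 1.32% of others (1 cell, log2 -5.15 ± 0.757). IGKV4-72, IGKV8-27 and IGKV4-91 were lower too, with log2 ratios of -4.13, -3.13 and -3.07, as was the lambda gene IGLV1 at 1.17 and 3.23% (log2 -1.52). IGKV10-96 and IGKV14-111 were lower by edgeR (log2 -0.66 and -0.60) but not by DESeq2, and IGKV2-137, IGKV9-124 and IGKV13-84 did not pass (log2 -0.37, 0.54 and 0.07).

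The preference was shared with a few other heavy genes. In WT libraries IGHV1-81 had the highest IGKV1-135 share of 62 IGHV genes, 31.1% of its cells, followed by IGHV1-74 (23.5%), IGHV1-18 (19.1%) and IGHV1-85 (13.2%). In KO libraries it ranked 4 of 69 at 11.97%, below IGHV1-74 (23.1%), IGHV1-18 (17.1%) and IGHV1-59 (13.3%). IGHV1-81 cells held 61.2% of all WT cells with IGKV1-135 and 25.9% of all such KO cells. Across the whole light-gene profile, with each clone counted once, the IGHV genes most like it were IGHV1-9 (Pearson r = 0.682 over 97 light V genes), IGHV1-75 (0.655) and IGHV1-64 (0.639), of 50 genes with at least 200 cells. The points of these correlations share the libraries and the general usage of each light gene. IGKV1-135 itself was the partner in 1.99% of IGHV1-9, 2.16% of IGHV1-75 and 2.54% of IGHV1-64 clones, against 14.0% of IGHV1-81 clones.

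The IGKV1-135 chains of the genotypes differed in the ninth codon of the CDR3 shown above. The arginine form was carried by 43 KO cells (29.9%) and 259 WT cells (57.9%), in 19 KO and 42 WT clones. The histidine form, which joins IGKJ2 in place of IGKJ1, was carried by 3 KO cells and 100 WT cells, in 2 KO and 6 WT clones. The glutamine form, by contrast, was carried by 56 KO cells (38.9%) in 48 clones and by 27 WT cells (6.04%) in 8 clones. The tyrosine form was carried by 25 KO cells in 20 clones and 6 WT cells in 4 clones. The tryptophan form was carried by 2 KO cells in 2 clones and 33 WT cells in 2 clones. In the 694 IGKV1-135 cells with other heavy genes, the tyrosine and tryptophan forms led, at 28.8 and 22.5%, and the arginine form stood at 8.50%. The CDR3 had 11 amino acids in 144 of 144 KO and 441 of 447 WT cells. These forms were listed after they were counted, and no test was made of them.

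Heavy J segments were unevenly used as well. IGHJ2 was joined in 38.4 ± 2.84% of KO and 41.5 ± 1.497% of WT IGHV1-81 cells, IGHJ3 in 24.2 ± 1.99% and 29.1 ± 0.903%, IGHJ4 in 24.5 ± 0.862% and 20.2 ± 2.76% and IGHJ1 in 12.8 ± 1.41% and 9.17 ± 1.51% (n = 4 each, KO first). IGHJ1 and IGHJ4 were higher and IGHJ3 lower in KO (exact permutation p = 0.0286, adjusted p = 0.0381 for each), while IGHJ2 did not pass (exact permutation p = 0.114). With each clone counted once, IGHJ1 differed by 0.154 points (exact permutation p = 0.971). Without unmutated IgM cells of 1-cell clones, IGHJ3 and IGHJ4 differed by -3.75 and 3.61 points and did not pass (exact permutation p = 0.0857 and 0.0571). Against other cells, IGHV1-81 used IGHJ2 more, by 10.5 points in 8 of 8 libraries, and IGHJ1 and IGHJ4 less, with differences of -6.66 and -4.07 points, lower in 8 of 8 (exact sign permutation p = 0.00781 over 8 libraries, the smallest possible, adjusted p = 0.0176). Between genotypes, the IGHJ3 call ended without any 1 WT library and the IGHJ1 and IGHJ4 calls without any 1 KO library (exact permutation p = 0.0571). The IGHJ4 gap to other cells was -0.971 points, and not past the test, when only other IGHV1 family genes were compared (exact sign permutation p = 0.234).

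The heavy CDR3 was shorter in KO. The mean length was 14.6, 14.5, 14.8 and 14.2 amino acids in KO libraries, against 15.3, 15.5, 15.4 and 15.5 in WT libraries, with no overlap (n = 4, exact permutation p = 0.0286, adjusted p = 0.0286). Without unmutated IgM cells of 1-cell clones, the means were 14.9 ± 0.183 in KO and 15.5 ± 0.0963 in WT, a difference of -0.546 against -0.900 amino acids for all cells (exact permutation p = 0.0286). Cells with other IGHV genes averaged 14.4 in KO and 14.2 in WT. Counted over clones, the mean was 14.1 ± 2.90 in KO and 15.3 ± 2.37 in WT (SD over 685 and 499 clones). The lower mean in KO lay in short joints: CDR3s of at most 12 amino acids made up 29.1% of KO clones (199 of 685) and 9.22% of WT clones (46 of 499). In other IGHV genes the shares were 23.9% of clones in each genotype. The boundary of 12 was chosen after the lengths were seen, and no test was made.

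Among IGKV1-135 pairs, short joints were found in 55 of 144 KO cells, in 48 of 103 clones, and in 0 of 447 WT cells. The WT cells fell into 63 clones, and 0 of 63 allows a share of up to 4.76% of clones. Of these 55 cells, 96.4% were unmutated and 40 were unmutated IgM cells of 1-cell clones. Among IGHV1-81 cells with other light genes, short joints were found in 201 of 1059 KO and 63 of 991 WT cells. The short joints were not limited to naive-like receptors, since among mutated or switched cells they were found in 49 of 255 KO and 30 of 623 WT cells. Clones with IGKV1-135 averaged 12.9 amino acids in KO and 16.02 in WT.

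A pair of adjacent tyrosine codons in the heavy CDR3, which the IGHD1-1 segment and several others can supply, was found in 36.9% of KO clones and 55.5% of WT clones. Clones of other IGHV genes had it in 43.0% in KO and 41.0% in WT. Among IGKV1-135 clones the shares were 28.2% in KO (29 of 103) and 69.8% in WT (44 of 63). IGHD1-1 was listed for 13.5 ± 1.01% of KO and 20.5 ± 1.23% of WT cells, but no D segment was listed for 70.8 ± 1.30% of KO and 53.3 ± 3.62% of WT cells, so D usage is known for a minority of cells in both genotypes.

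**Figure D4:**
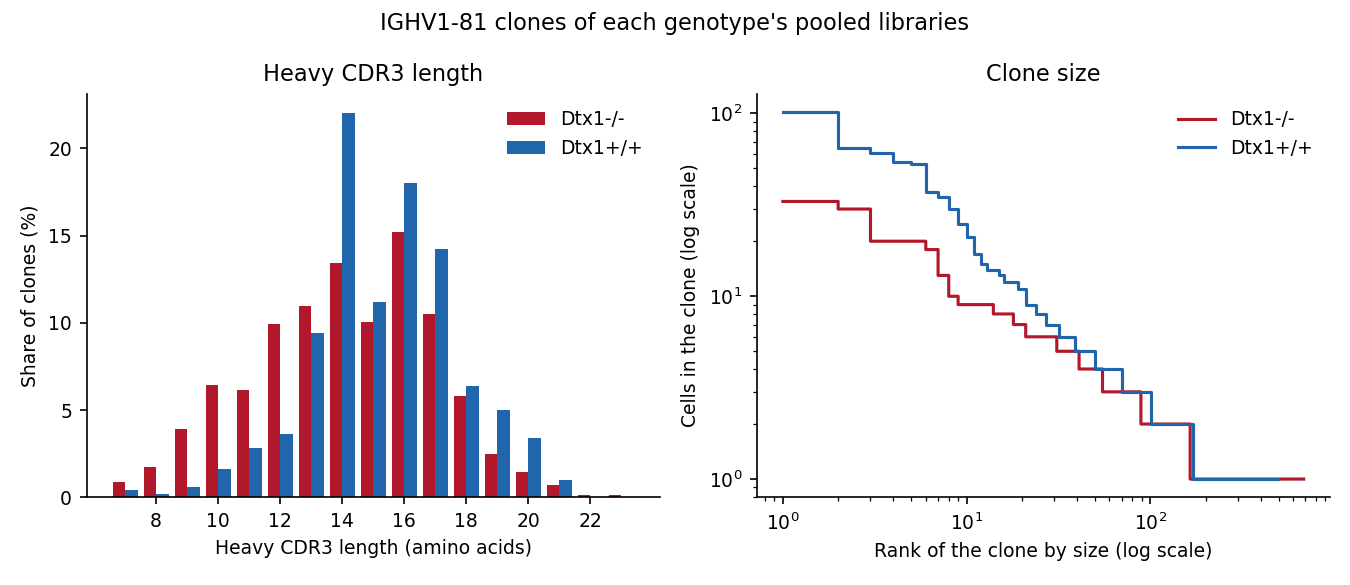
The left panel gives the percent of IGHV1-81 clones with each heavy CDR3 length in amino acids (Dtx1-/- red, Dtx1+/+ blue), and the right panel gives the number of cells in each clone by its rank, both on log scales. Dtx1-/- clones spread to shorter lengths, Dtx1+/+ clones peak at 14 amino acids (22.0% of clones, 13.4% in Dtx1-/-), and the largest clones hold 33 and 102 cells.

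Clones here are groups with the same heavy V and J, light V and J and CDR3 length whose heavy CDR3s are linked at a nucleotide identity of at least 0.85. There were 685 in KO, 521 of them of 1 cell, and 499 in WT, 330 of them of 1 cell. At 253 cells per library, cells in clones of 2 or more made up 29.0, 34.1, 39.3 and 38.3% in KO, against 52.8, 51.9, 62.0 and 56.4% in WT libraries. The groups did not overlap (n = 4, exact permutation p = 0.0286, adjusted p = 0.0286). The 1-cell clones included 382 unmutated IgM cells in KO and 104 in WT. By definition these cells lower the share, more so in KO, and no share without them is given here. When a clone needed identical heavy and light CDR3s, the difference was -12.7 points, against -20.6 by linkage (exact permutation p = 0.0286). The 5 largest clones of a library held 10.8 ± 1.80% of cells in KO and 22.7 ± 2.25% in WT (exact permutation p = 0.0286). Clones of at least 5 cells numbered 40 in KO with 30.9% of its cells and 49 in WT with 55.4%.

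The 4 largest clones of each genotype are shown by their most frequent heavy CDR3, with adjacent tyrosine codons in capitals, because they hold 103 of the KO cells (8.56%) and 282 of the WT cells (19.6%).
KO, 33 cells, IGHJ3 and IGKV1-117: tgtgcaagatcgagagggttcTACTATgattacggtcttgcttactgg
KO, 30 cells, IGHJ2 and IGKV3-12: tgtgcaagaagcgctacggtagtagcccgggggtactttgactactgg
KO, 20 cells, IGHJ2 and IGKV1-135: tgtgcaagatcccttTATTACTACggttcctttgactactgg
KO, 20 cells, IGHJ3 and IGKV1-110: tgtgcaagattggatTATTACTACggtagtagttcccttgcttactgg
WT, 102 cells, IGHJ2 and IGKV1-135: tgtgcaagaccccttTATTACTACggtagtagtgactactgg
WT, 65 cells, IGHJ2 and IGKV1-117: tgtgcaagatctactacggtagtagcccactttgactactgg
WT, 61 cells, IGHJ2 and IGKV1-135: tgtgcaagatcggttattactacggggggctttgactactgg
WT, 54 cells, IGHJ3 and IGKV1-135: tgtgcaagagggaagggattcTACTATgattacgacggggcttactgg
Each was found in all 4 libraries of its genotype and mostly as IgM. The largest KO clone had 33 cells with 1 CDR3 and no mutation, and the second, of 30 cells, likewise. The WT group of 102 cells held 36 heavy and 11 light CDR3 sequences, 49 unmutated cells and 7 switched cells, so the linkage joined receptors of several CDR3s. The WT clone of 61 cells, with the histidine light chain shown above, had 1 heavy CDR3 and no mutation in any cell. In the WT clone of 54 cells, 52 were unmutated. Of the 8 clones, 3 thus had no mutated cell at a size of 30 cells or more.

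Some receptor forms were found in both genotypes. By the same clone rule applied across all libraries, 34 KO clones (4.96%) and 38 WT clones (7.62%) fell in 31 groups with cells of both, of which 23 had adjacent tyrosine codons and 6 used IGKV1-135. The largest such group held 20 KO and 110 WT cells and joins the third KO clone to the first WT group above. The next held 4 KO and 66 WT cells with IGKV1-117, and another 13 KO and 16 WT cells with IGKV1-117 and IGHJ3. The identical heavy CDR3s, compared as amino acids, numbered 10, 1.40% of 713 in KO and 1.67% of 599 in WT, and all of them had a light gene in common. Only 2 of the 10 were ever identical as nucleotides. The pair with IGHJ3 and IGKV2-137, carried by 2 KO and 18 WT cells of which some of the WT cells used IGKV14-111 instead, and the pair with IGKV8-30 and IGHJ1, carried by 1 KO and 11 WT cells, are printed with the differing bases in capitals.
IGKV2-137 pair, KO: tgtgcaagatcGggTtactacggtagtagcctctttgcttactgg
IGKV2-137 pair, WT: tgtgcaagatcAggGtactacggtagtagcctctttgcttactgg
IGKV8-30 pair, KO: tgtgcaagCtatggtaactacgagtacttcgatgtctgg
IGKV8-30 pair, WT: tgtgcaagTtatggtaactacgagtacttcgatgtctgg

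A change counted once per clone was seen at 177 of the 285 positions in KO and 230 in WT, 244 in all, and 25.7% of KO clones (176 of 685) and 65.9% of WT clones (328 of 498) had at least 1. Single unmutated IgM cells made up 382 of the KO clones and 104 of the WT clones. They hold no change, so they lower each share of all clones here, more so in KO. The share of clones changed at each position correlated between genotypes at r = 0.904 over the 285 positions, which share 1 sequence, so no test was made. The first of the capital bases of the germline is position 83 and the last 246, and 4 of the 10 lie in CDR1 or CDR2. Ranked within each genotype, the 10 most changed positions had 4 in common, positions 92, 104, 105 and 189. The 10 capital bases took 22.7% of KO and 26.0% of WT changes. AID prefers cytosines in certain short motifs, here AAC, AGC, TAC and TGC with the last base as the target, and GTT, GCT, GTA and GCA with the first base as the target on the other strand. Of the 150 C and G positions of the germline, 45 (30%) lie in one, and 8 of the 10 capital bases do. Changes at C or G lay in a motif for 73.9 ± 4.71% in KO and 71.6 ± 1.62% in WT (n = 4, exact permutation p = 0.486).

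The base changed most often was G92 in codon 31 of CDR1, in 35 KO clones (5.11%) and 115 WT clones (23.1%), mostly as G92A. Of clones that were mutated at all, 19.9% in KO and 35.1% in WT had it. The replacement it gives, serine to asparagine (S31N), was carried by 2.96, 2.65, 1.63 and 3.16% of cells in KO libraries, against 11.3, 15.1, 10.5 and 14.0% in WT libraries. It was found with 15 light V genes in 25 KO clones and with 23 light V genes in 95 WT clones, so it was not tied to 1 partner. Codon 35 followed, with G104A in first place there: position 104 was changed in 33 KO and 72 WT clones, and S35N was found in 22 KO and 45 WT clones. Position 167, in codon 56 of CDR2, was changed in 12 KO clones (1.75%) and 57 WT clones (11.4%), and G56D was found in 3 KO and 32 WT clones. T30I was found in 10 KO and 33 WT clones. As shares of mutated clones, KO then WT, S35N stood at 12.5 and 13.7%, G56D at 1.70 and 9.76% and T30I at 5.68 and 10.1%. Per clone, mutated or not, and 100 bases, CDR1 had 0.799 changes in KO and 3.33 in WT. CDR2 had 0.754 and 2.91, and framework 1, the least mutated region, 0.232 and 0.817. The ratio of CDR to framework frequency was 2.35 ± 0.141 in KO and 3.15 ± 0.238 in WT (n = 4, exact permutation p = 0.0286), which did not hold after adjustment over 4 pattern measures (adjusted p = 0.114), and with each mutation counted once per clone the difference was -0.529 in place of -0.809. The share of changes that replace an amino acid was 73.8 ± 2.18% in KO and 77.0 ± 1.03% in WT (exact permutation p = 0.114 with n = 4).

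**Figure D5:**
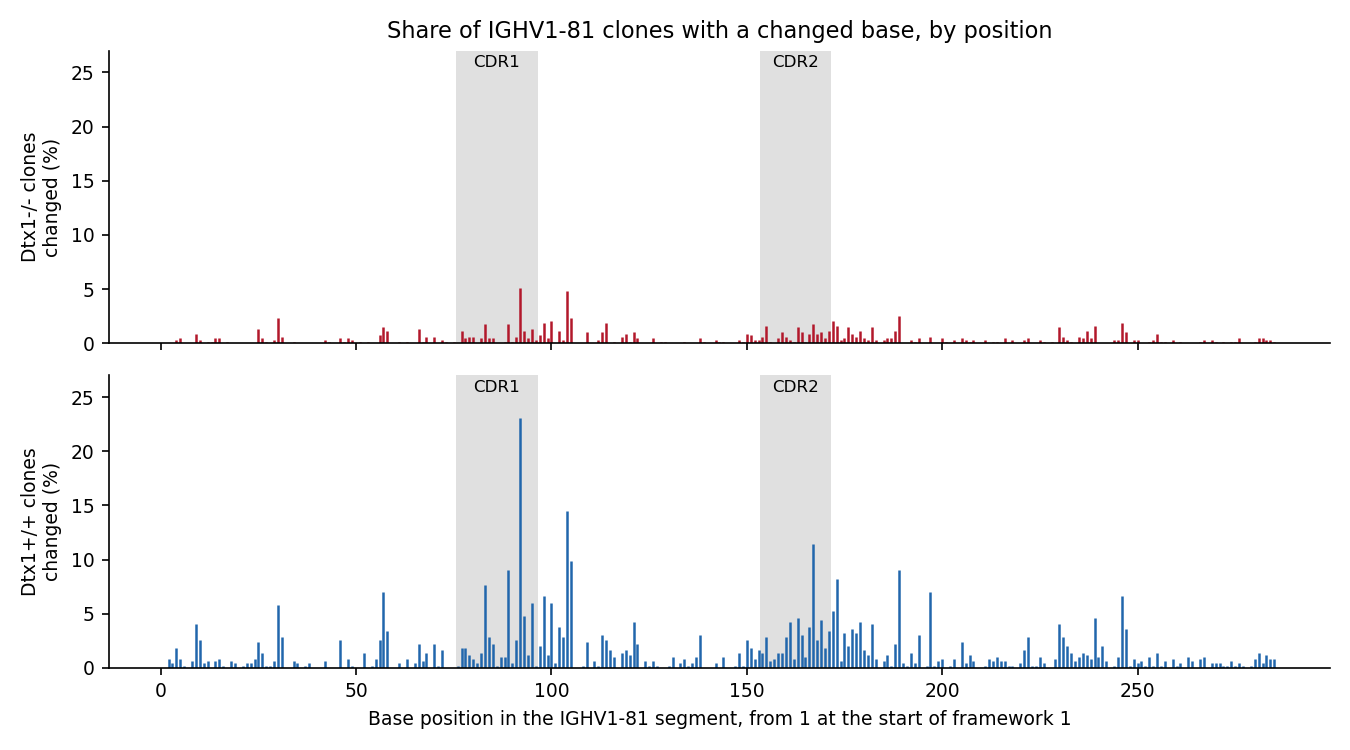
Each line is the percent of IGHV1-81 clones with a changed base at that position of the germline segment, counted from 1 at the start of framework 1, for Dtx1-/- (upper) and Dtx1+/+ clones (lower), with CDR1 and CDR2 shaded. The tallest line in both is position 92 in CDR1, at 5.11% of Dtx1-/- and 23.1% of Dtx1+/+ clones, mutated or not.

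Against other cells of the same libraries, IGHV1-81 cells were more mutated, by 0.104 ± 0.0996 percentage points (SD over 8 libraries, higher in 7 of 8, exact sign permutation p = 0.0234, adjusted p = 0.0422). The gap was 0.0191 points within KO and 0.189 within WT. Against other IGHV1 family cells alone it was 0.0542 points and with each clone counted once 0.141, and neither passed (exact sign permutation p = 0.148 and 0.0938). Lambda light chains were fewer in 8 of 8 libraries, at 1.78 ± 0.679% of IGHV1-81 cells and 3.14 ± 0.0703% of others in KO, and 1.304 ± 0.677% and 6.40 ± 0.161% in WT (exact sign permutation p = 0.00781, adjusted p = 0.0176). The unmutated share differed by -3.85 points, the switched share by 1.06 points and IGHJ3 use by 0.281 points, and none of these passed. Against other IGHV1 family cells alone, IGHJ3 use turned to -3.05 points and passed (exact sign permutation p = 0.00781). CDR3 length differed by 0.626 amino acids, higher in 6 of 8 libraries, and did not hold after adjustment (exact sign permutation p = 0.0469, adjusted p = 0.0703).

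The partners differed in mutation within a genotype. IGKV1-135 cells were unmutated in 91.0% of KO and 63.1% of WT cells, and IGKV1-110 cells in 59.8% of KO and 31.9% of WT cells. IGKV2-137 ran the other way, unmutated in 39.1% of KO cells (23 cells) and 83.3% of WT cells (126 cells in 18 clones). The 447 WT cells with IGKV1-135 fell into 63 clones. Its WT clones of 61, 54 and 102 cells held 61, 52 and 49 unmutated cells. IGKV1-135 was also less used among switched cells, at 2 of 81 in KO and 23 of 134 in WT, against 12.8% of KO and 32.7% of WT IgM cells. Its share was lower in switched than in IgM cells in 8 of 8 libraries. The WT share varied by class, at 19.3% of IGHG1, 4.26% of IGHG2B, 16.7% of IGHG2C and 37.5% of IGHG3 cells (9 of 24).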

How the data were processed

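Receptor contig tables of 8 libraries (4 KO, 4 WT) were used. The submitters' processing notes name Cell Ranger (version not stated), R 4.3.1 and build mm10. Each deposited table gives, per the file headers, read and UMI counts per contig as whole numbers, not normalized, with gene calls and region sequences; all contigs were marked full length and productive. Barcodes with exactly 1 heavy and 1 light contig were kept and no doublet caller was run. The germline was the most common framework 1 to 3 sequence over clones, so a mutation shared by most clones would be missed. Library values were tested by exact two-sided permutation over 70 assignments (25 measures, 17 past 0.05), and light-gene cell counts by edgeR 4.0.16 (library size set to cells, genes with at least 16 cells; DESeq2 1.42.0 as an alternative) in R 4.3.3. Benjamini-Hochberg values were taken within families. Other steps used Python 3.11.15, NumPy 2.4.6 and SciPy 1.17.1. Named light genes were the 10 most used, up to 6 others called between genotypes and up to 6 called against other cells; other names were added after their values were seen. Members, lists and tests were chosen with earlier results of these data known. Same-numbered KO and WT libraries did not deviate together in their light-gene shares, and the main tests did not pair them. Light-gene shares need not show shared handling, so a pairing by number is not excluded.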

Additional observations from a re-analysis of the deposited data

Results flagged for a closer look

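Of 72 groups of 4 library values examined, 3 held a library whose gap to its nearest neighbour exceeded Dixon's 95% limit for its share of the group's range, and chance gives about 1 in 20. The share of mutations at A and T was 35.3% in KO replicate 3, below 44.2 to 45.9% in the other KO libraries. The share of mutations that replace an amino acid was 78.5% in WT replicate 3, above 76.4 to 76.5% in the other WT libraries. IGHV1-81 took 7.15% of paired cells in WT replicate 4, below 7.85 to 7.87% in the other WT libraries. The KO minus WT difference of IGHV1-81 cells less that of other cells was -0.170 percentage points for mutation frequency and 10.99 points for the unmutated share, each past the threshold before adjustment (exact permutation p = 0.0286) and not after it (adjusted p = 0.0571).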

How the results depend on the processing

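Of 338 values that answer a comparison under other settings, 282 kept their direction and their side of the threshold, as did 420 of 458 for single light genes. The class-switched difference (-2.72 points) was -2.27 with at least 5 heavy UMIs, -2.39 with all cells of 1 heavy contig and -0.247 without unmutated IgM cells of 1-cell clones, all 3 without a call, -5.98 and called with each clone counted once and, turned round, 5.15 at 20 to 40 UMIs; the UMI window and the setting without those cells were added after seeing the data, and the cause was not tested. At 20 to 40 UMIs, the IGHG1 share of switched cells (37.8), the unmutated share (15.7), IGHJ3 (-10.3) and IGHJ4 (6.17) lost their calls with fewer cells, and without the naive-like cells IGHJ3 (-3.75) and IGHJ4 (3.61) did. With each clone counted once, IGHJ1 was 0.154 and IGHJ2 2.64, against 3.67 and -3.09 by cells, the share of paired cells differed by -0.750 points, the genotype contrast of IGHV1-81 less that of other cells was -4.48 points for switching (past the threshold), and against other cells mutation (0.141) and CDR3 length (0.481) lost their calls and IGHJ3 was -0.239. With all cells of 1 heavy contig, IGHJ2 passed at -3.61. Against other IGHV1 genes alone, mutation (0.0542) and IGHJ4 (-0.971) lost their calls and IGHJ3 turned to -3.05 and passed. Light genes called between genotypes numbered 13, against 8 with DESeq2 (4 higher, 8 of them among the 13) and 8 with each clone counted once (5 higher); against other cells 44 (8 higher), with 29 by DESeq2 (11 higher) and 38 with TMM factors (11 higher). Of named light genes, the genotype fold change turned round for IGKV8-30 (-0.12), IGKV10-96 (-0.093) and IGKV14-111 (-0.37) with DESeq2, for IGKV10-96 (-0.40) and IGKV14-111 (-0.30) with each clone counted once, and for IGKV14-111 (-0.29) and IGKV1-117 (0.0397) without the naive-like cells, none of them past the threshold. Against other cells, IGKV2-137 was 0.13 with DESeq2 and IGKV13-84 was -1.80 with each clone counted once. Leaving out 1 library gave -3.16 to -2.21 for switching and -5.84 to -4.39 for IGHJ3, where leaving out any WT library ended the call, and 3.04 to 4.29 for IGHJ1 and 3.35 to 5.30 for IGHJ4, where leaving out any KO library did; with 35 assignments, 1 other as extreme is enough. CDR3 length against other cells ranged over 0.531 to 0.748 and lost its call in 6 of 8 cases. The A and T share of mutations (4.01 to 8.02) passed without KO replicate 3, and the replacement share (-4.22 to -2.50) without KO replicate 4. IGKV14-111 ranged over -0.069 to 0.36 between genotypes and IGKV13-84 over -0.25 to 0.30 against other cells. With the replicate block, 14 light genes were called, and the library values -2.72 (switching), 29.7 (IGHG1 of switched), -0.366 (mutation), 22.9 (unmutated), 3.67, -4.89 and 4.31 (IGHJ1, IGHJ3, IGHJ4) and -0.900 (CDR3 length) could not pass, since 4 pairs allow no p below 0.125; same-numbered libraries correlated at -0.248 to 0.181, and 1 of 4 matched its own number best. A germline from a reference genome was not used here. Classes with few cells, such as IGHG2C, IGHG3 and IGHD, rest on 0 to 9 cells a library.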
